A study of Mus musculus with 4 samples.

Results

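The genes described here are the Nduf genes, which encode subunits and assembly factors of respiratory complex I, in mouse left ventricle. They were taken as every gene whose symbol in the probe annotation begins with Nduf and whose probe had a value on each of the 4 arrays. This gave 35 genes of the 14039 genes measured on all 4 arrays, and no gene with such a symbol was lost for an empty cell. By role they were 6 core subunits of complex I, 8 accessory subunits of its peripheral arm, 19 accessory subunits of its membrane arm, the assembly factor Ndufaf1, and Ndufa4. Ndufa4 keeps its old name but is now counted with cytochrome c oxidase, complex IV.

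Total RNA of left ventricles was hybridised to 4 single-colour arrays, 1 per group, in a study of how loss of STIM1, the calcium sensor of the endoplasmic reticulum, alters the heart under pressure overload. All 4 groups were male C57BL/6 mice of 14 weeks, taken 4 weeks after an operation at 10 weeks of age. The groups were wild type (WT) after a sham operation, WT after transverse aortic constriction (TAC, a ligature tied over a 0.3 mm wire that narrows the aorta and loads the ventricle), STIM1-deficient (STIM1KO) after a sham operation, and STIM1KO after TAC. Mean ratios of heart to body weight in the labels, which carry no unit, were 4.1 after sham and 6.7 after TAC in WT, and 4.5 and 4.9 in STIM1KO. They do not state how STIM1 was removed, in which cells, or whether RNA was pooled over mice. With a single array per group there is no replicate error and no test. Every difference below is between arrays, and p-values were not computed.

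Complex I takes electrons from NADH, passes them along a chain of iron-sulfur clusters to ubiquinone, and pumps protons across the inner mitochondrial membrane. The peripheral arm, in the matrix, holds the NADH site and the clusters, and the membrane arm holds the proton pumps. The heart is rich in mitochondria and depends on this complex for most of its ATP. The core subunits carry out the chemistry, the accessory subunits surround and stabilise them, and assembly factors help to build the complex but are not part of it.

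The STIM1KO TAC array stood apart from the other arrays. Among the 7020 genes at or above the median probe level (a log2 intensity of 4.87), log2 differences had an SD across genes of 0.42 between STIM1KO TAC and STIM1KO sham and of 0.25 between the WT arrays. The Stim1 probe read 41.6 (sham) and 33.9 (TAC) in WT, and 20.7 (sham) and 13.8 (TAC) in STIM1KO in quantile-normalized intensity. It was lower on both STIM1KO arrays. Its mean over the arrays was below the median level, so these readings do not show whether Stim1 RNA remained. The tissue label was checked on cardiomyocyte markers. Of 10 such markers, 9 had a value on all arrays, and their summed normalized intensity was between 209678 and 248248 on the 4 arrays. The largest parts of this sum were Mb (65551 to 66594) and Myl2 (54171 to 58086). Quantile normalization gives such bright probes nearly the same values on each array, so the sum could vary little. Between the TAC arrays 4 of the 9 were above 0 and 4 below, from -1.01 for Ryr2, a dim probe, to 1.37 for Ttn. The summed level of 10 endothelial markers ran from 3783 on WT sham and 3467 on WT TAC to 2700.3 on STIM1KO sham and 2372 on STIM1KO TAC, and that of 10 fibroblast markers from 6693 and 6345 to 5277 and 4210 in the same order. The largest part of the fibroblast sum was Dcn, at 3279, 2879, 2406 and 1433, and between the STIM1KO arrays 4 of the 10 fibroblast markers were above 0 and 6 below. Sums over the other lists lay between 2023 and 2594 for 9 macrophage markers, 998 and 1738 for 7 smooth muscle and pericyte markers, and 981 and 1243 for 6 adipocyte markers. A single gene made a large part of each, so the sums are not levels of whole lists. These genes were C1qb (752 to 944), Acta2 (515 to 1094) and Cidea (841 to 1103), and Egfl7 (1194 to 1921) for the endothelial sum. Only markers with a value on all 4 arrays entered these sums, and whether the dim ones were above background was not tested. The part of these markers in the results below was not tested, and in bulk tissue fewer cells of a type and less RNA per cell cannot be told apart.

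Most of the 35 genes gave bright signals. Their probes lay at or above the 90th percentile of probe level in 30 cases, and 33 were at or above the median level. The exceptions below the median level were Ndufa3 and Ndufc1. Probe brightness depends on the probe and is not a transcript level, so no gene is ranked against another here. Because of this brightness, the genes are set below beside all 14039 genes and also beside the 1404 genes at or above the 90th percentile, called the brightest genes.

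Over the 4 arrays the Nduf genes had narrower ranges than genes at large. The log2 difference between the highest and lowest array of a gene had a median of 0.35 over the 35 genes, against 0.55 over all genes and 0.42 over the brightest genes. It reached 1.5-fold (0.585 on the log2 scale) for 5 of 35 genes, or 14.3%, against 46.1% of all genes and 27.8% of the brightest genes. The brightest genes begin at an intensity of 352, and many Nduf probes lay far above that, such as Ndufv2 at percentile 99.74. No set of genes matched to the Nduf genes in level was compared, so the part of brightness in these narrower ranges was not tested. The narrowest range was 0.15 for Ndufb9, an accessory subunit of the membrane arm, and the widest was 1.04 for Ndufb4, another of that arm. Of the 5, Ndufb3, also of the membrane arm, reached 1.5-fold only between WT sham and STIM1KO TAC, which differ in both genotype and operation. It read 6388 (sham) and 4749 (TAC) in WT, and 5117 (sham) and 4226 (TAC) in STIM1KO, lower with TAC in both genotypes.

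**Figure D1:**
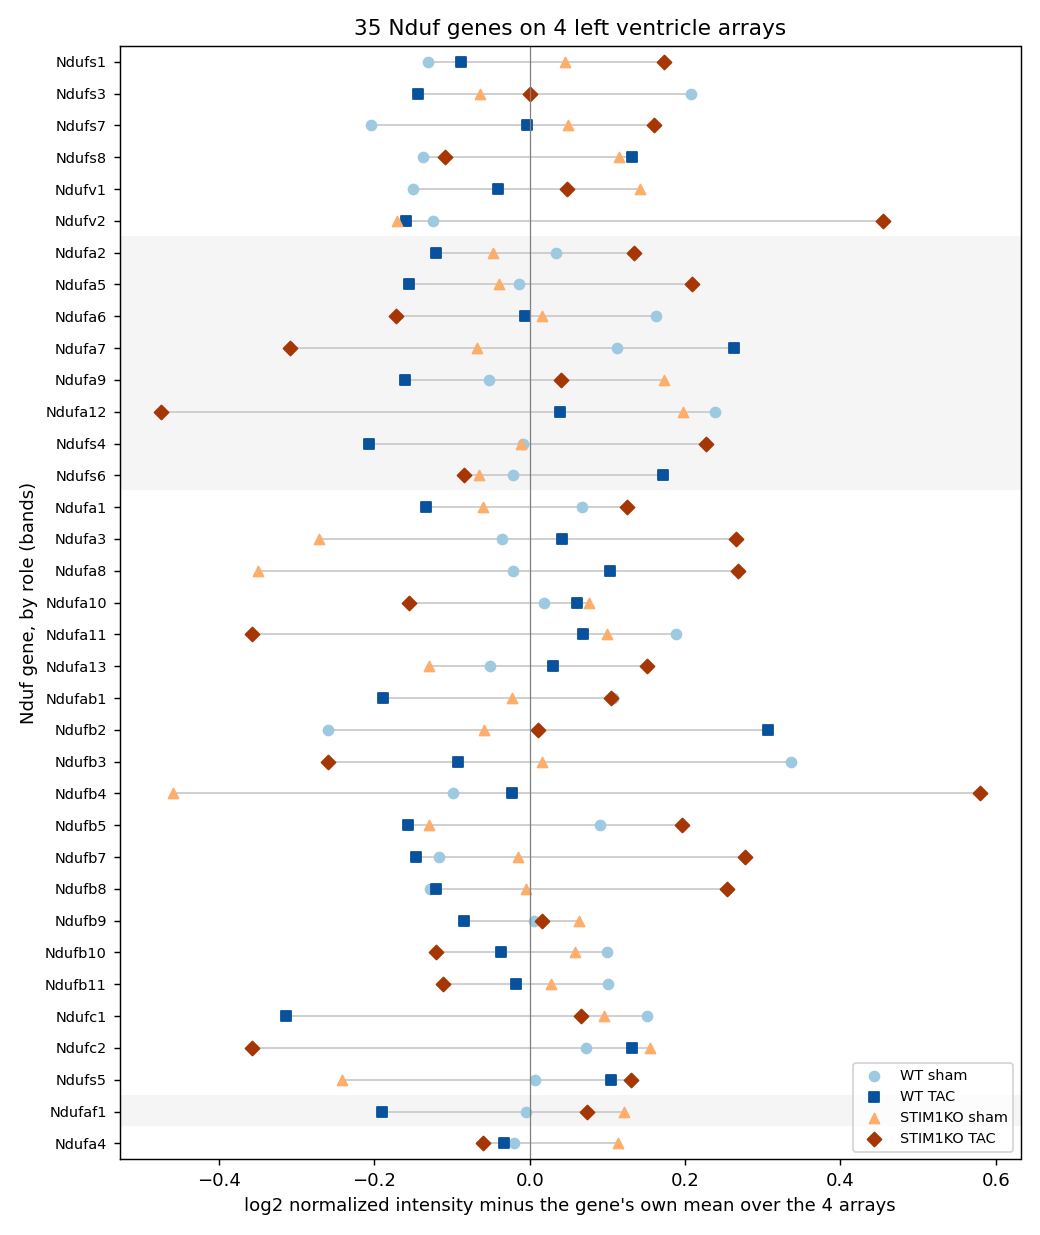
Each row is an Nduf gene, in bands by role from top to bottom (core subunits, accessory subunits of the peripheral arm, accessory subunits of the membrane arm, Ndufaf1, Ndufa4), and each point is a single array, as log2 quantile-normalized intensity minus the gene's own mean over the 4 arrays. Most rows span less than 0.5, the STIM1KO TAC point is farthest out in Ndufb4, Ndufv2 and Ndufa12, and it lies right in some genes and left in others.

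The gene with the largest single difference was Ndufb4, and 3 others reached 1.5-fold in a comparison that changed only genotype or only operation. These 4 were Ndufb4, Ndufv2, Ndufa8 and Ndufa12, and in each of them the STIM1KO TAC array was the highest or the lowest. The 250 bases before the transcription start of each are shown as RefSeq gives them for build GRCm38.p6, because these are the members whose values moved most. Capitals mark matches on either strand to the NRF1 motif (a GC-rich palindrome, searched with a free base at its centre), GGGCGG (SP1), AAGGTCA (the core letters of the estrogen-related receptor motif) or CCAAT. The windows are chr16:37654369-37654618 on the minus strand, chr17:66101560-66101809 on the minus strand, chr2:36049339-36049588 on the minus strand and chr10:94198785-94199034 on the plus strand.
Ndufb4: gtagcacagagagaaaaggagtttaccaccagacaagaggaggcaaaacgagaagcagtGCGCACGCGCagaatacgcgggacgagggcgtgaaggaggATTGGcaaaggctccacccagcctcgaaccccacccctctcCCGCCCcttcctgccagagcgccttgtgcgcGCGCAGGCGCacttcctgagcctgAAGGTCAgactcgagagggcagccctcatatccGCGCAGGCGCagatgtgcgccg
Ndufv2: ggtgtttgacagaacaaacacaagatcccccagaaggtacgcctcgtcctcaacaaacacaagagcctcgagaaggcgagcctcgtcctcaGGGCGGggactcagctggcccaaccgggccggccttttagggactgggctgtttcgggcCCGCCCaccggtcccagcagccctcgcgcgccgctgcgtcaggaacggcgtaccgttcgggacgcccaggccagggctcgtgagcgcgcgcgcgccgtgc
Ndufa8: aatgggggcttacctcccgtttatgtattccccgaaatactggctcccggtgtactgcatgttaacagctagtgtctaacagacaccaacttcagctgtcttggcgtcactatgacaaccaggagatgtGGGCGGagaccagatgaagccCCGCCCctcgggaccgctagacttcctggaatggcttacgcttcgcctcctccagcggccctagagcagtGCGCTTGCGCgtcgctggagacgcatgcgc
Ndufa12: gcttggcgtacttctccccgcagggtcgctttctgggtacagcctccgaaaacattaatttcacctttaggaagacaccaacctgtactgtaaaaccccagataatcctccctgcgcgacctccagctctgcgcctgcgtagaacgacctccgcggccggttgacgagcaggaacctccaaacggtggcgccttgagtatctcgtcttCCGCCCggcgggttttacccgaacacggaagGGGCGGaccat
In these windows Ndufb4 held 3 NRF1 matches and 1 match to the receptor letters. Ndufa8, also highest on the STIM1KO TAC array, held 1 NRF1 match. In Ndufv2, likewise highest there, and in Ndufa12, lowest there, all matches were to the SP1 letters. The SP1 letters were matched in Ndufb4 and Ndufa8 too, and so in each of the 4 windows. Ndufb4 also held a CCAAT match.

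The same letters were counted in the 300 bases from 250 before to 50 after the start, for the 32 of 35 genes with a RefSeq window. No window was given for Ndufa2, Ndufb9 and Ndufs1. The NRF1 motif was found in 7 of 32 Nduf genes, 21.9%, against 5.19% of 27025 genes with a window. The 7 were Ndufa5, Ndufa6, Ndufa8, Ndufa11, Ndufb4, Ndufs5 and Ndufs6. The YY1 letters AAGATGGC were also found in 7, 21.9% against 3.19%, in each case reaching past the start, in Ndufa3, Ndufa9, Ndufb8, Ndufc1, Ndufs4, Ndufs6 and Ndufs7. The ETS letters CCGGAAG were in 4 (12.5% against 9.93%), AAGGTCA in 3 (9.38% against 5.38%), GGGCGG in 14 (43.8% against 38.2%), CCAAT in 10 (31.2% against 41.1%) and TATAAA in 4 (12.5% against 15.7%). The stricter NRF1 form with T as the free base, which is contained in the form above, was in 1 gene (3.12% against 1.07%). A match is a description of letters and not a site of binding.

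Ndufb4, the accessory subunit of the distal membrane arm named above, had normalized intensities of 2676 (sham) and 2821 (TAC) in WT, and 2084 (sham) and 4280 (TAC) in STIM1KO. Both WT arrays were close together, STIM1KO sham was below them and STIM1KO TAC above. The log2 difference of STIM1KO TAC from STIM1KO sham was 1.04, a 2.05-fold higher signal, and from WT TAC it was 0.60. Between the WT arrays it was 0.08. With median centring the difference between the STIM1KO arrays was 0.99, just under 2-fold, and that between the TAC arrays was 0.53. The mouse annotation also holds the copies Ndufb4b and Ndufb4c, and whether the probe tells them from Ndufb4 was not tested.

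Ndufv2 encodes a core subunit that carries an iron-sulfur cluster beside the NADH site. It read 12808 (sham) and 12503 (TAC) in WT, and 12402 (sham) and 19146 (TAC) in STIM1KO. A single array, STIM1KO TAC, was high and the other three lay between 12402 and 12808. The difference of STIM1KO TAC from STIM1KO sham was 0.63, and from WT TAC 0.61. With median centring both were 0.46, with values as deposited 0.56 and 0.46, and with cyclic loess 0.55 and 0.57, under 1.5-fold in each case.

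Ndufa8, an accessory subunit on the intermembrane space side of the complex, read 5829 (sham) and 6356 (TAC) in WT, and 4641 (sham) and 7121 (TAC) in STIM1KO. The STIM1KO sham array was the lowest, and the difference between the STIM1KO arrays was 0.62. Between the TAC arrays the difference was 0.16.

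Ndufa12, an accessory subunit of the peripheral arm, went the other way. It read 23903 (sham) and 20817 (TAC) in WT, and 23234 (sham) and 14573 (TAC) in STIM1KO. The STIM1KO TAC array was lowest, at a log2 difference of -0.67 from STIM1KO sham and -0.51 from WT TAC, and WT TAC was -0.20 from WT sham. Ndufv2 and Ndufa12 belong to the same peripheral arm and differed in opposite directions on that array.

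The threshold itself parted near neighbours. Just inside it were Ndufb4 between the TAC arrays (0.60) and Ndufv2 in the same comparison (0.61). Just outside were Ndufa7 between the TAC arrays (-0.57), Ndufb2 between the WT arrays (0.57), Ndufa3 between the STIM1KO arrays (0.54) and Ndufc2 there (-0.51).

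Banding in WT left the Nduf genes close to where they were in the sham array. Of the 35, 15 were above 0 and 20 below in WT TAC minus WT sham, with a median of -0.035 and a range from -0.46 (Ndufc1) to 0.57 (Ndufb2). All genes had a median of -0.019, with 47.3% above 0, and the brightest genes of -0.022, with 44.6% above. None of the 35 reached 1.5-fold in either direction. Among all genes 4.77% were 1.5-fold higher and 4.94% lower, and among the brightest genes 1.71% and 0.926%, so a count of 0 among 35 is near the background.

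In STIM1KO the same comparison spread wider, for Nduf genes as for genes at large. With STIM1KO TAC minus STIM1KO sham, 18 were above 0 and 17 below (50.9% of all genes and 48.7% of the brightest genes were above 0), the median was 0.065, and the range ran from -0.67 (Ndufa12) to 1.04 (Ndufb4). The SD across the 35 genes was 0.35, against 0.21 between the WT arrays. Ndufb4, Ndufv2 and Ndufa8 were at least 1.5-fold higher and Ndufa12 lower. That is 3 and 1 of 35, beside 12.0% and 10.9% of all genes and 6.7% and 6.05% of the brightest genes. At 2-fold there was 1, Ndufb4, where 3.48% of all genes and 1.35% of the brightest genes were 2-fold higher. The shares among Nduf genes are near these backgrounds.

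Between the sham arrays, STIM1KO minus WT, the Nduf genes differed least. The SD across them was 0.18, the range was -0.36 (Ndufb4) to 0.29 (Ndufv1), and 22 of 35 were below 0 with a median of -0.044. All genes had a median of -0.0053, with 49.2% above 0, and the brightest genes of 0.0036, with 50.4% above. No Nduf gene reached 1.5-fold, beside 5.05% of all genes higher and 6.67% lower, and 1.28% and 2.35% of the brightest genes.

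Between the TAC arrays, STIM1KO minus WT, more Nduf genes were higher than lower. The count was 22 above 0 and 13 below, or 62.9% above, beside 52.1% of all genes and 51.3% of the brightest genes. The median was 0.14, beside 0.027 over all genes and 0.017 over the brightest genes. Ndufb4 and Ndufv2 were 1.5-fold higher and none was 1.5-fold lower, where 11.4% of all genes were higher and 11.4% lower, and 5.27% and 6.41% of the brightest genes. The median stayed positive under each scaling tried, at 0.08 with values as deposited, 0.08 with median centring and 0.19 with cyclic loess. Under the first pair of these scalings neither gene reached 1.5-fold, and Ndufa7 and Ndufc2 were lower by that much instead.

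**Figure D2:**
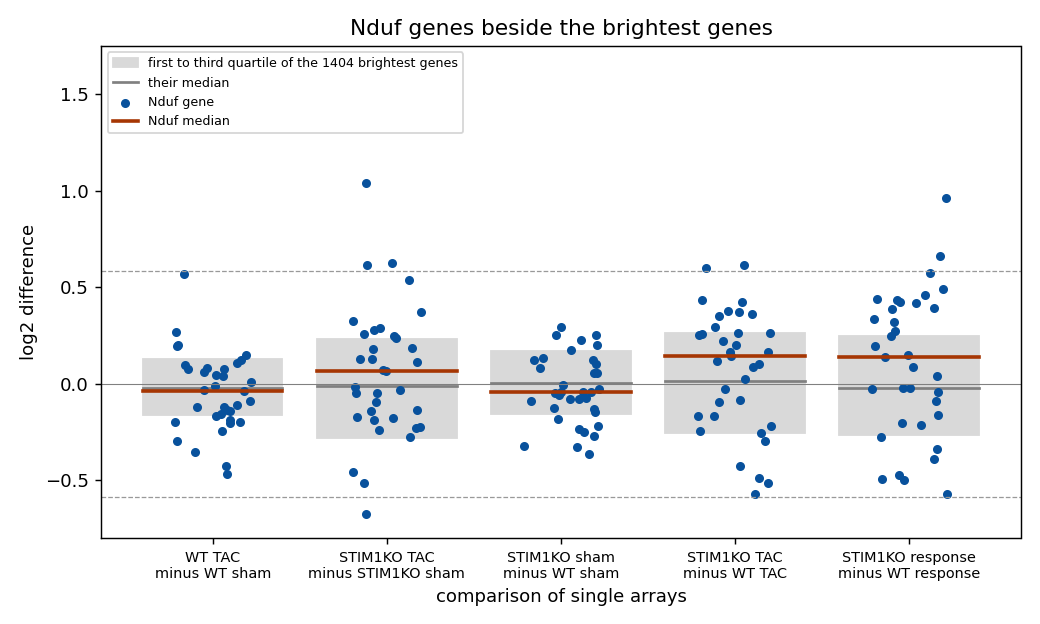
Log2 differences of the 35 Nduf genes (points) in the 5 comparisons of single arrays, with the Nduf median as a thick line, and the interquartile range and the median of the 1404 brightest genes as a grey box and line. Dashed lines mark 1.5-fold. The Nduf median lies within the grey box in every comparison and its largest distances from the grey line are between the TAC arrays and in the last column.

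The difference of the responses to TAC, STIM1KO minus WT, uses all 4 arrays. Its median over the 35 genes was 0.14, with 20 above 0, beside 0.0045 over all genes, of which 50.3% were above 0, and 47.5% of the brightest genes. With median centring it was -0.0075, where the median of all genes was -0.0445. Minus the median of all genes it was 0.13, and 0.037 both with median centring and with values as deposited. Ndufb4 (0.96) and Ndufv2 (0.66) were 1.5-fold higher, and 0 were lower, beside 14.4% and 11.4% of all genes and 7.12% and 4.84% of the brightest genes.

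No array enters both the WT and the STIM1KO response. Over the 35 genes the responses correlated at r = 0.15, beside 0.17 over all genes and 0.26 over the brightest genes. Each r is a description across genes that were measured together on the same 4 arrays. The sign was opposite in 15 of 35 genes (42.9%), beside 41.9% of all genes and 40.5% of the brightest genes. Of the 35, 9 were lower with TAC in WT and higher in STIM1KO, and 6 the reverse, beside 3190 and 2691 of all 14039 genes. A further 11 were lower in both and 9 higher in both, beside 4188 and 3946 of all 14039 genes. These counts are near the background.

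**Figure D3:**
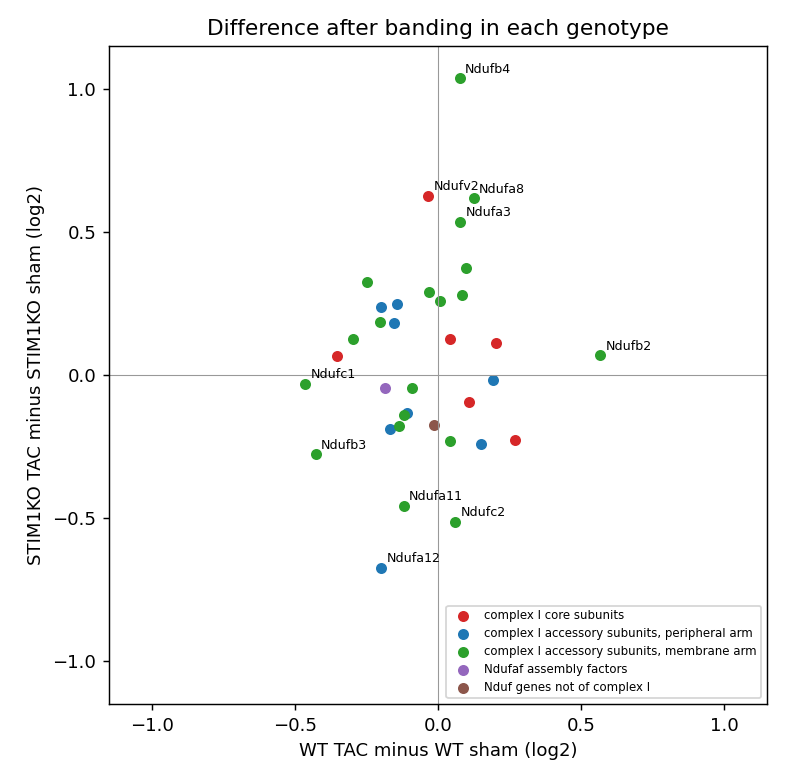
Log2 difference after TAC in WT (horizontal) and STIM1KO (vertical) for the 35 Nduf genes, coloured by role, with the genes farthest from 0 named. The points spread farther along the vertical axis, from -0.67 for Ndufa12 to 1.04 for Ndufb4, than along the horizontal one, from -0.46 for Ndufc1 to 0.57 for Ndufb2.

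The array on which each gene was highest or lowest was also counted. STIM1KO TAC gave the highest value for 15 of 35 Nduf genes and the lowest for 11, where it was highest for 36.8% and lowest for 33.6% of all genes. WT TAC was the lowest array for 12 Nduf genes and the highest for 4, where the shares over all genes were 20.6% and 17.3%. WT sham was lowest for 6 and highest for 9, beside 25.1% and 26.1%, and STIM1KO sham lowest for 6 and highest for 7, beside 20.7% and 19.8%.

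Among the core subunits, Ndufv1, which holds the flavin that takes electrons from NADH, read 3540.3 (sham) and 3819 (TAC) in WT, and 4336 (sham) and 4060.2 (TAC) in STIM1KO. Both STIM1KO arrays were above both WT arrays, by at most 0.29. Ndufs1, the largest core subunit and a carrier of iron-sulfur clusters, followed that order too, with 1839 (sham) and 1893 (TAC) in WT, and 2079 (sham) and 2270.0 (TAC) in STIM1KO. So did Ndufs7, which holds the last cluster of the chain before ubiquinone. Its values were 5973 (sham) and 6868 (TAC) in WT, and 7121 (sham) and 7689 (TAC) in STIM1KO.

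The remaining core subunits did not share that order. Ndufs3, a core subunit near the ubiquinone site, read 7436 (sham) and 5829 (TAC) in WT, and 6158 (sham) and 6444 (TAC) in STIM1KO, highest on WT sham. Ndufs8, another carrier of clusters toward ubiquinone, read 1661 (sham) and 2003 (TAC) in WT, and 1980.0 (sham) and 1694 (TAC) in STIM1KO. In Ndufs8 the arrays with TAC were higher in WT and lower in STIM1KO, by 0.27 and -0.23. Of the 6 core subunits, 5 were above 0 between the TAC arrays, with Ndufs8 below, and 4 were above 0 between the sham arrays. Among all genes 52.1% and 49.2% were above 0 there, and so few genes do not set the core subunits apart.

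Among the 8 accessory subunits of the peripheral arm, 6 were below 0 with TAC in WT (median -0.15) and 5 in STIM1KO (median -0.076). Among all genes 47.3% and 50.9% were above 0 in these comparisons. Ndufa5, which sits by the ubiquinone module, read 19146 (sham) and 17357 (TAC) in WT, and 18800.4 (sham) and 22342 (TAC) in STIM1KO. The last array was the highest, 0.36 above WT TAC. Ndufs4, whose loss in mice gives a widely used model of complex I deficiency, had the same highest and lowest arrays, with 0.43 between the TAC arrays. Ndufa7 was the reverse, at -0.57 there, and Ndufa2, Ndufa6, Ndufa9 and Ndufs6 were between -0.26 and 0.25.

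The 19 accessory subunits of the membrane arm had medians of -0.030 with TAC in WT, 0.13 with TAC in STIM1KO, -0.078 between the sham arrays and 0.12 between the TAC arrays. Ndufa13 read 16894 (sham) and 17885 (TAC) in WT, and 16005 (sham) and 19436 (TAC) in STIM1KO, a range under 1.5-fold. Ndufa11 and Ndufc2 were lowest on STIM1KO TAC, at -0.43 and -0.49 from WT TAC. Ndufb7, Ndufb8 and Ndufb5 were highest there, at 0.42, 0.37 and 0.35.

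The dimmest probes of the family were in this arm as well. Ndufa3 read 7.97 (sham) and 8.41 (TAC) in WT, and 6.77 (sham) and 9.82 (TAC) in STIM1KO, not far above the first quartile of each array, between 5.38 and 5.64. Ndufc1 read 24.7 (sham) and 17.9 (TAC) in WT, and 23.8 (sham) and 23.3 (TAC) in STIM1KO, with WT TAC alone lower. Ndufb2 read 27.2 (sham) and 40.2 (TAC) in WT, and 31.2 (sham) and 32.8 (TAC) in STIM1KO, with WT TAC alone higher. These single dim readings set both ends of the range of WT differences, and signal over background limits what they can show.

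Ndufs5, an accessory subunit of the membrane arm, was the member with a second probe. The brighter probe read 4455 (sham) and 4766 (TAC) in WT, and 3747 (sham) and 4851 (TAC) in STIM1KO, and the dimmer 3451, 3727, 3298 and 5670 in that order. The probes gave the same order of the 4 arrays from lowest to highest. They differed in size between the TAC arrays, at 0.026 for the brighter and 0.61 for the dimmer probe, and between the STIM1KO arrays, at 0.37 and 0.78. For this gene a difference past 1.5-fold was thus read by the dimmer probe and not by the brighter one. A pseudogene named Ndufs5-ps is in the mouse annotation, and its part in either probe was not tested.

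Ndufaf1, which helps to assemble the membrane arm, read 495 (sham) and 435 (TAC) in WT, and 540 (sham) and 523 (TAC) in STIM1KO, with WT TAC lowest. Ndufa4 read 16154 (sham) and 16005 (TAC) in WT, and 17724 (sham) and 15712 (TAC) in STIM1KO, a range of 0.17.

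The annotation lists 5 more Nduf genes under older symbols, outside the rule, and 4 of them were measured on every array. Ndufa4l2, a relative of Ndufa4 known to be induced by low oxygen, read 126 (sham) and 162 (TAC) in WT, and 120.2 (sham) and 166 (TAC) in STIM1KO. It was higher with TAC in both genotypes, by 0.36 and 0.47. Ndufaf7, an assembly factor of complex I, read 98.0 (sham) and 129 (TAC) in WT, and 152 (sham) and 134 (TAC) in STIM1KO, 0.64 higher on STIM1KO sham than on WT sham. Ndufaf4 and the peripheral arm subunit Ndufv3 differed by at most 0.32 in the 4 pairwise comparisons.

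Other assembly factors of complex I, from a list of 13, had a value for 11. Between the TAC arrays 3 of these were at least 1.5-fold lower in STIM1KO and none higher, with a median of -0.22. Among all genes 11.4% were lower and 11.4% higher by that much. The 3 were Tmem126b (-0.78), which belongs to the complex that assembles the membrane arm, Tmem70 (-0.78), which also acts in assembly of ATP synthase, and Tmem126a (-0.74). They were named after their values were seen. Ndufaf1 differed by 0.27 in that comparison. The 7 mitochondrially encoded subunits of complex I were not found in the probe annotation under the symbols searched, so they were not analysed.

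Subunits of complexes II to V were compared with the Nduf genes. Of 41 listed, 26 were found in the probe annotation, and all 26 had a value. Atp5pb was the only subunit of complex V among them, so complex V is hardly covered. The medians over the 26 were -0.037 with TAC in WT and 0.093 with TAC in STIM1KO. They were -0.032 between the sham arrays and 0.011 between the TAC arrays, where the Nduf median was 0.14. At 1.5-fold between the TAC arrays 3 were higher and 2 lower of 26, beside 11.4% and 11.4% of all genes. Of the 26, 14 were above 0 and 12 below, where 52.1% of all genes were above 0. The SD across these genes was 0.44 there, against 0.31 across the Nduf genes. Past 2-fold was Cox6a2, the heart and muscle form of a cytochrome c oxidase subunit, at -1.02, with 26444 on WT TAC and 13038 on STIM1KO TAC. On the STIM1KO TAC array, genes of these complexes thus lay on both sides of the WT TAC array, as Nduf genes did.

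**Figure D4:**
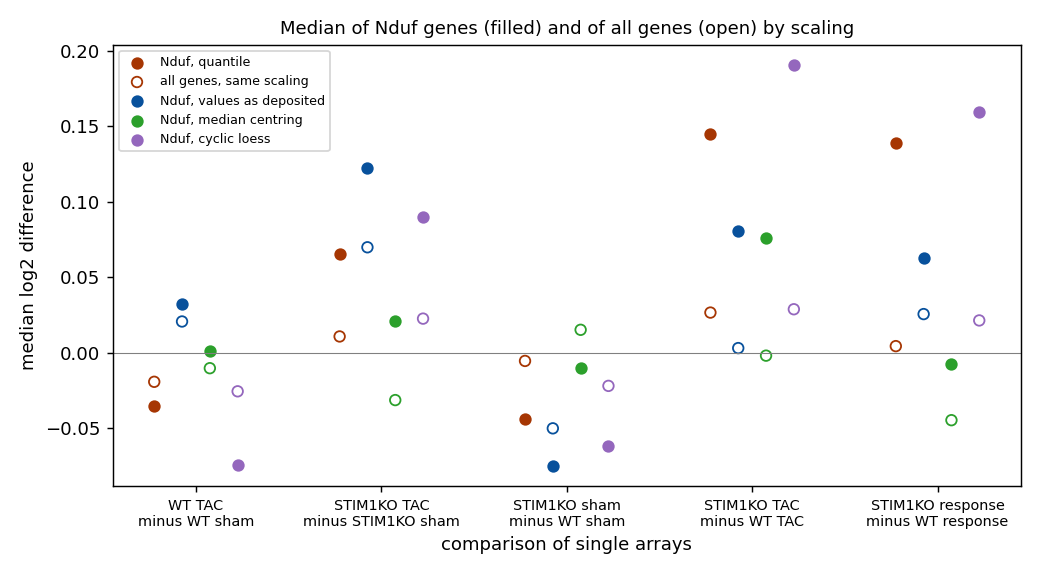
Median log2 difference of the 35 Nduf genes (filled) and of all 14039 genes (open) in each comparison, under 4 ways of scaling the arrays. Filled points between the TAC arrays lie above 0 under each scaling, from 0.08 to 0.19, and those of WT TAC minus WT sham lie on both sides of 0.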

How the data were processed

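The table the authors deposited gives a linear, scaled intensity for each probe. Amino allyl RNA coupled to Cy5 was hybridised, per the labels' protocols. The sources used here do not give the scanner, the background correction or the reason for empty cells. Deposited medians lay near 20.0, and 19607 of 23473 probes were complete. These complete probes were log2-transformed and quantile-normalized (limma 3.58.1 in R 4.3.3), since the log2 medians over them, unlike those over every deposited value, spread over 0.101. The brightest probe stood for a gene. Symbols came from the platform's probe annotation, updated through synonyms in a RefSeq gene table. Normalized intensity is on the linear scale and each difference is log2. A separate copy of the quantile step was tested on simulated data, with known folds put into the WT TAC column. The other steps were not tested in this way. Arrays are single, so their number limits precision.

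The members, gene lists, motifs and alternatives were chosen with earlier results of these data known. Values on every array are given for genes past 1.5-fold between groups that differ in genotype or operation alone, core subunits, the 3 brightest and 3 dimmest probes, genes with several probes, and Ndufa4 and Ndufa4l2. From the other pathway lists, genes past 2-fold are named, and regulators whose letters were searched for are given on every array. Marker lists are given as sums, with some single markers named beside them. Other genes are named with differences only. Alternatives were values as deposited, median centring, cyclic loess, filters at the median, 75th and 90th percentile of level, the mean over probes, an offset of 5.49, and a threshold of 2-fold. The 90th percentile and other sets of members or probes were added after seeing the data.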

Additional observations from a re-analysis of the deposited data

Results flagged for a closer look

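Values of opposite sign in the groups compared are collected here, and with 1 array per group none of these differences was tested. The median of the 35 Nduf genes was -0.035 with TAC in WT and 0.065 with TAC in STIM1KO. The former was 0.032 with values as deposited and 0.0013 with median centring. For STIM1KO minus WT it was -0.044 between the sham arrays and 0.14 between the TAC arrays. In single genes, Ndufv2 was -0.035 with TAC in WT and 0.63 in STIM1KO. With values as deposited the former was 0.068 and with median centring 0.037, of the same sign as in STIM1KO. For STIM1KO minus WT, Ndufv2 was -0.046 between the sham arrays (0.040 with median centring) and 0.61 between the TAC arrays, Ndufb4 was -0.36 and 0.60, and Ndufa8 was -0.33 and 0.16. In 15 of 35 genes the difference with TAC had opposite signs in both genotypes, 42.9%, beside 41.9% of all genes.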

How the results depend on the processing

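No paired analysis was possible because each group has 1 array. A median counts as moved at a change of 0.1, and a count at a change over 1.5 times. For the medians and counts over Nduf genes, 153 of 175 values under the alternatives stayed within these limits. That share is no measure of stability. Most members keep the same normalized values under the level filters, the mean over probes and the changed sets of members or probes. Those settings could move the results little. The limit of 0.1 is also larger than the main medians of -0.035, 0.065 and -0.044. The median with TAC in WT turned to 0.032 with values as deposited and 0.0013 with median centring. With TAC in STIM1KO it turned to -0.018 with the filter at the 75th percentile and -0.018 with the 4 older symbols added. The difference of responses turned to -0.0075 with median centring, where the median of all genes was -0.0445. Relative to all genes it was 0.037 there. With values as deposited, counts at 1.5-fold went from 0 to 1 higher with TAC in WT (Ndufb2), from 2 to 0 higher and 0 to 2 lower between the TAC arrays, and from 2 to 1 higher and 0 to 2 lower in the difference of responses. Between the TAC arrays median centring also gave 0 higher and 2 lower, with 1 higher and 2 lower for the difference of responses, and 2 lower in place of 1 with TAC in STIM1KO. Cyclic loess gave 4 higher in the difference of responses and 1 between the TAC arrays. At 2-fold the counts were 1 higher and 0 lower with TAC in STIM1KO, and 0 higher both in the difference of responses and between the TAC arrays. Adding the older symbols gave 1 higher between the sham arrays, Ndufaf7. For the 4 genes past 1.5-fold, 14 of 16 pairwise differences kept their sign under the 3 other scalings. The exceptions were of Ndufv2, which turned to 0.068 (as deposited) and 0.037 (median centring) with TAC in WT, and to 0.040 (median centring) between the sham arrays. The cause of these changes was not tested.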

Other observations

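Regulators of respiratory genes, from a list of 12 that all had a value, had a median log2 difference of 0.11 between the TAC arrays. Of these, 7 were above 0 and 5 below, where 52.1% of all genes were above 0. Past 2-fold was Esrrg, the estrogen-related receptor gamma, at 1.04 in STIM1KO TAC against WT TAC. Its probe read 63.0 (sham) and 57.4 (TAC) in WT, and 76.0 (sham) and 118 (TAC) in STIM1KO, highest on the last. Ppargc1a, the coactivator of mitochondrial gene expression, stayed between 148 and 164 on the 4 arrays. Regulators tied to the letters searched for in promoters are given in the same order of arrays. Nrf1 read 22.4, 24.5, 21.3 and 13.1, and Yy1 66.5, 78.7, 88.2 and 56.0. For the ETS letters, Gabpa read 189, 166, 202 and 183, and Gabpb1 22.6, 26.3, 24.4 and 19.0. For the receptor letters besides Esrrg, Esrra read 216, 214, 237 and 277, and Esrrb 14.3, 15.2, 15.1 and 16.1. Nrf1, Yy1 and Gabpb1 were lowest on STIM1KO TAC, as were 33.6% of all genes. Esrra and Esrrb were highest there, as were 36.8%. The probes of Nrf1, Gabpb1 and Esrrb lay below the median level.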
